A study of Homo sapiens with 4 samples.

Results

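The suppressors of cytokine signalling (SOCS) are a family of 8 genes, SOCS1 to SOCS7 and CISH, and all 8 were found by exact symbol among the 25548 gene symbols of an mRNA sequencing table. Their levels were read in FaDu, an established squamous carcinoma line of the human hypopharynx. The treated group received 5-aza-2'-deoxycytidine (Aza, a cytidine analogue that blocks maintenance of DNA methylation) at 5 µM on days 1 to 3 and trichostatin A (TSA, a histone deacetylase inhibitor) at 100 nM on day 3. The vehicle group is labelled DMSO only; the protocol also names ethanol as the vehicle for TSA. Each group had 1 stranded poly(A) library of total RNA, so no difference below has a replicate check and no p-value is given. UMSCC47, the other line of the study, was not used, because its columns did not follow the gene names: 7 (Aza/TSA) and 13 (DMSO) of 34 housekeeping genes reached 10 FPKM there, against 33 in each FaDu library. FPKM is fragments scaled to transcript length and library size, so levels can be compared between genes.

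SOCS proteins form the feedback arm of JAK-STAT signalling. A cytokine receptor activates JAK kinases, which phosphorylate STAT transcription factors, and the STATs induce several SOCS genes. Each SOCS protein carries an SH2 domain, which binds phosphotyrosine on receptors or kinases, and a SOCS box, which recruits elongins B and C and cullin-5 to mark the bound protein for degradation. SOCS1 and SOCS3 also block the catalytic site of JAKs directly, and SOCS1 has been reported as silenced by promoter methylation in several carcinomas.

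The 300-base promoters of 3 members are shown because SOCS1 and CISH were the least abundant members in DMSO-treated FaDu cells and SOCS3 the most abundant. Each runs from 250 bases before to 50 bases after the gene start, in RefSeq sequence of GRCh38.p14, all on the minus strand: SOCS1 at chr16:11256155-11256454, CISH at chr3:50611725-50612024 and SOCS3 at chr17:78360876-78361175. Capitals mark matches to the STAT-type motif TTCNNNGAA or the interferon regulatory factor-type motif (GAAA and again GAAA, with 2 bases of any kind between), searched on both strands.
SOCS1: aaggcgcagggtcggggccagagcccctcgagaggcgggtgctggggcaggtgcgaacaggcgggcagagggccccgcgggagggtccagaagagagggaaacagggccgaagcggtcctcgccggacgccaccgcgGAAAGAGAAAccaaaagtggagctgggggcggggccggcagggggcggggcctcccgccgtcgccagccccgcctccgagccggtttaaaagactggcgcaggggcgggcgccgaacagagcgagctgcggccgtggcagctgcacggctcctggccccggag
CISH: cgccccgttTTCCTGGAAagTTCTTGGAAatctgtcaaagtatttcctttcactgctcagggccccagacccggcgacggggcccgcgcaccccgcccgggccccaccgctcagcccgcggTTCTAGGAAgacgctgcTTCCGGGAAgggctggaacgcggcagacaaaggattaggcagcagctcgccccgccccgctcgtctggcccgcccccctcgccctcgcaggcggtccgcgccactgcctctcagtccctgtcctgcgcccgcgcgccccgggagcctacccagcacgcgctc
SOCS3: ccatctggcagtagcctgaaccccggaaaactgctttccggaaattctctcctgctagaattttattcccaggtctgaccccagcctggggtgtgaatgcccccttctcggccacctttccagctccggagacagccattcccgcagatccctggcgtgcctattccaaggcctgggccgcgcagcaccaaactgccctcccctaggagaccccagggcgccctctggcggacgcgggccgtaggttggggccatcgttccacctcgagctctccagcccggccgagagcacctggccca
The CISH window held 4 matches to TTCNNNGAA and the SOCS1 window held 1 match to the interferon regulatory factor-type motif. The SOCS3 window held neither. Each window sits at the outer end of the gene's RefSeq span. Other transcript starts were not searched, so a window without a match does not show that the gene lacks the motif. Of 35116 promoters of this length, 7.66% held the first motif and 3.57% the second. The SOCS1 and CISH windows each had 33 CpG dinucleotides and the SOCS3 window had 17, against a median of 14 over all promoters. CpG counts too hold for the windows only, and promoters at other starts of these genes may differ. Among the other members with a matched window, SOCS4 had 33 CpG and SOCS6 had 47, with neither motif. DNA methylation and factor binding were not measured, so these letters are a description of the sequence.

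SOCS1, an inhibitor of interferon receptor signalling, was the only member at least 2-fold higher in the Aza/TSA library, and no member was at least 2-fold lower. The other 7 members, with CISH counted, stayed within 2-fold, on the scale log2((Aza/TSA FPKM + 1)/(DMSO FPKM + 1)). Of the 7 members that reached 1 FPKM in either library, 1 was called higher and 0 lower; of all 13558 genes that reached it, 16.1% were called higher and 5.21% lower. A share of 1 in 7 is close to that background, and SOCS1 reached 1 FPKM in the Aza/TSA library only. The median log2 change over all 8 members was −0.21, against 0.13 over all genes measured, and 3 members were above 0 and 5 below.

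SOCS1 had 2.65 FPKM in the Aza/TSA library, against 0.177 FPKM in the DMSO library. It was the lowest of the 8 members in the DMSO library and ranked 6 of 8 in the Aza/TSA library. The ratio of the FPKM was 15.0, and the log2 change with the pseudocount was 1.63, higher than in 94.4% of genes measured. The call did not hold with a pseudocount of 5 (0.56) or after subtraction of the trend on GC content (0.67). At 2.65 FPKM in the Aza/TSA library, SOCS1 could not reach 2-fold in either setting, whatever its DMSO value. These 2 settings are therefore no check of the call. With the GC trend subtracted, 0 members were called higher and 1 lower. Of genes with a GC value, 7.35% were then called higher and 4.29% lower.

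The few reads behind the DMSO value set its precision. FPKM of genes with few reads step in multiples of what 1 fragment is worth. Length was counted after 240 bases were taken off the transcript. In 7499 genes with 1 RefSeq-matched transcript, the steps put 1 fragment at 0.0585 in FPKM multiplied by kilobases of that length. At that value 60.8% of 1869 low values were within 0.1 of a whole number of fragments, against a median of 14.6% over the 1491 combinations of step size and length correction tried. SOCS1, with a transcript of 1225 bases, then had about 44.6 fragments in the Aza/TSA library and 2.97 in the DMSO library. Taken as 45 and 3 fragments, the ratio was 15.0 with an exact 95% interval of 4.82 to 75.5, which covers counting error only. A single step was fitted to the low values of both libraries together, so the same value of 1 fragment was assumed for each. On that assumption the direction was outside counting error, while the size of the difference was known only within that wide range.

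**Figure D1:**
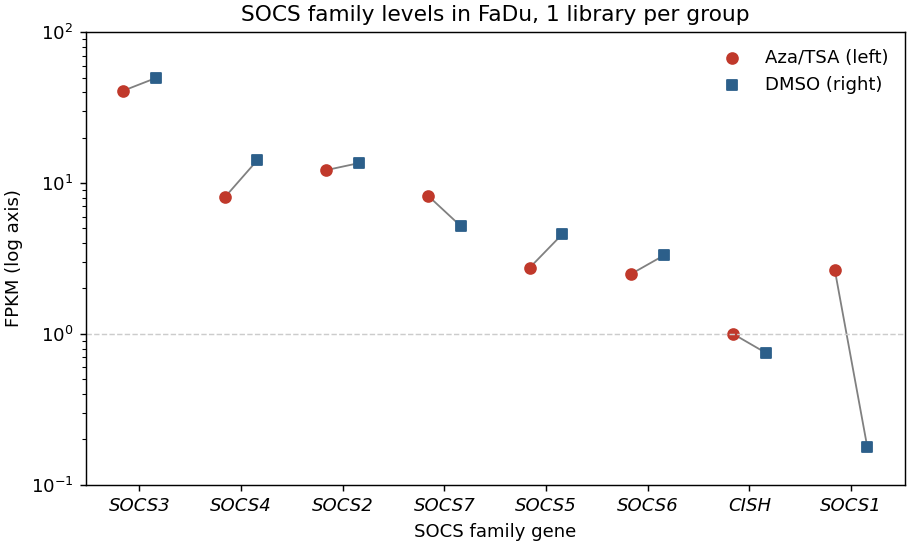
FPKM (log axis) of each SOCS family gene in the Aza/TSA library (circles, left) and the DMSO library (squares, right), ordered by the DMSO level; the dashed line is 1 FPKM. SOCS1 stands at 2.65 and 0.177 FPKM, while each of the other genes differs by less than 2-fold between the libraries.

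SOCS3, which binds the shared receptor chain gp130 (IL6ST) and limits IL-6 signalling, was the most abundant member in both libraries. It had 40.9 FPKM in the Aza/TSA library and 49.7 FPKM in the DMSO library, a log2 change of −0.27. It supplied 52.3% of the summed FPKM of the family in the Aza/TSA library (78.3 FPKM in all) and 54.3% in the DMSO library (91.4 FPKM). About 1745 fragments in the Aza/TSA library and 2117 in the DMSO library stood behind these values, with a ratio of 0.824 and a counting interval of 0.773 to 0.879. SOCS3 has a GC-rich transcript (60.0% GC), at which the trend of all genes stood at 0.74 on the log2 scale. After that trend was subtracted its change was −1.02, just past 2-fold lower.

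CISH and SOCS2 are best known for limiting growth hormone, prolactin and STAT5 signalling. CISH had 0.999 FPKM in the Aza/TSA library and 0.749 FPKM in the DMSO library, and so fell just short of the 1 FPKM that counts as measured. Its log2 change was 0.19, or −0.51 after the GC trend was subtracted, and the ratio of about 31 fragments (Aza/TSA) to 23 (DMSO) has a counting interval of 0.761 to 2.42. The start of CISH overlaps the gene MAPKAPK3 by 255 bases in the RefSeq annotation of GRCh38.p14. MAPKAPK3, a stress-activated kinase, had 16.6 FPKM in the Aza/TSA library and 7.05 in the DMSO library, and whether the authors' counting used strand is not given in the sources used here. SOCS2 had 12.2 FPKM in the Aza/TSA library and 13.6 FPKM in the DMSO library, a log2 change of −0.14. Its counting interval, 0.729 to 1.11 for the ratio, included 1, as did that of CISH.

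SOCS4 and SOCS5, close relatives that have been linked to EGF receptor turnover, were the lowest 2 members by log2 change. SOCS4 had 8.04 FPKM in the Aza/TSA library and 14.2 FPKM in the DMSO library, a ratio of 0.567 and a log2 change of −0.75. SOCS5 had 2.75 FPKM in the Aza/TSA library and 4.59 FPKM in the DMSO library, a ratio of 0.600 and a log2 change of −0.57. Both differences were larger than counting error, with intervals of 0.509 to 0.632 for SOCS4 and 0.498 to 0.727 for SOCS5. Their transcripts are AT-rich, at 35.6% and 38.9% GC, and after the GC trend was subtracted the changes were −0.09 and −0.10.

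SOCS6 and SOCS7 bind insulin receptor substrates, and SOCS7 also binds the adaptor NCK. SOCS6 had 2.51 FPKM in the Aza/TSA library and 3.32 FPKM in the DMSO library, a log2 change of −0.30 that turned to 0.22 after the GC trend was subtracted. SOCS7 went the other way, with 8.23 FPKM in the Aza/TSA library, against 5.19 FPKM in the DMSO library. Its ratio was 1.59, with a counting interval of 1.44 to 1.75, and its log2 change was 0.58, or 0.31 after the GC trend was subtracted. SOCS7 ranked 3 of 8 in the Aza/TSA library and 4 of 8 in the DMSO library.

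**Figure D2:**
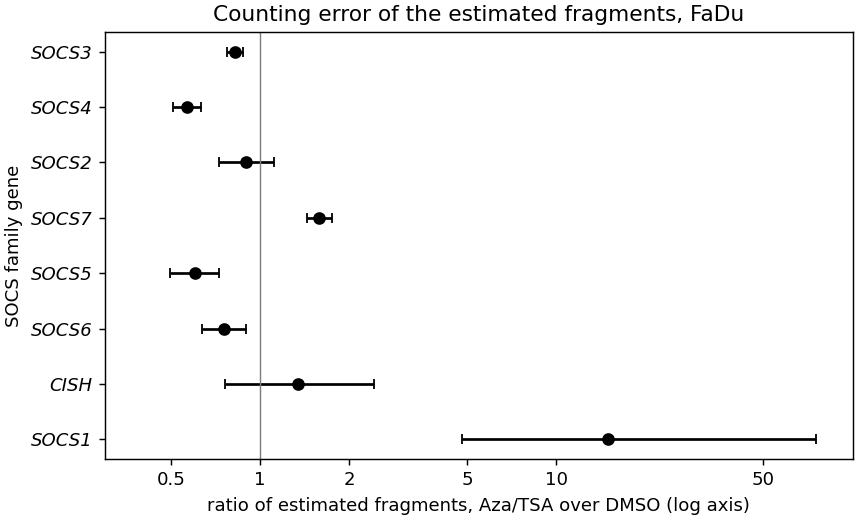
Ratio of the estimated fragments in the Aza/TSA library over the DMSO library (points, log axis) for each SOCS family gene, with exact 95% intervals for counting error only, from the shortest RefSeq-matched transcript. The intervals of SOCS2 and CISH include 1, and that of SOCS1 runs from 4.82 to 75.5.

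The order of the levels in the Aza/TSA library was SOCS3, SOCS2, SOCS7, SOCS4, SOCS5, SOCS1, SOCS6 and CISH. In the DMSO library it was SOCS3, SOCS4, SOCS2, SOCS7, SOCS5, SOCS6, CISH and SOCS1. With 1 library there is no spread to say which neighbours differ; SOCS7 and SOCS4 were close in the Aza/TSA library (8.23 and 8.04 FPKM), as were SOCS4 and SOCS2 in the DMSO library (14.2 and 13.6 FPKM). The highest member was 41.0 times the lowest in the Aza/TSA library and 281 times in the DMSO library, where the lowest value rests on about 3 fragments.

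The changes of the members followed the GC content of their transcripts. The 3 AT-rich members SOCS4, SOCS6 and SOCS5 (35.6% to 38.9% GC) were all below 0, and SOCS1, with the highest GC content (65.4%), had the highest change. Over the 8 genes Pearson's r was 0.77 and Spearman's rho 0.81, given as a description, since the genes share the same 2 libraries. Across 7129 genes with no less than 5 FPKM in each library rho was 0.68, so the family followed what the whole table showed. SOCS3 and CISH, both near 60% GC, lay below the trend, at −0.27 and 0.19 where the trend stood at 0.74 and 0.70. SOCS1 lay above it, at 1.63 where the trend stood at 0.96. The part of GC content in these differences was not tested.

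**Figure D3:**
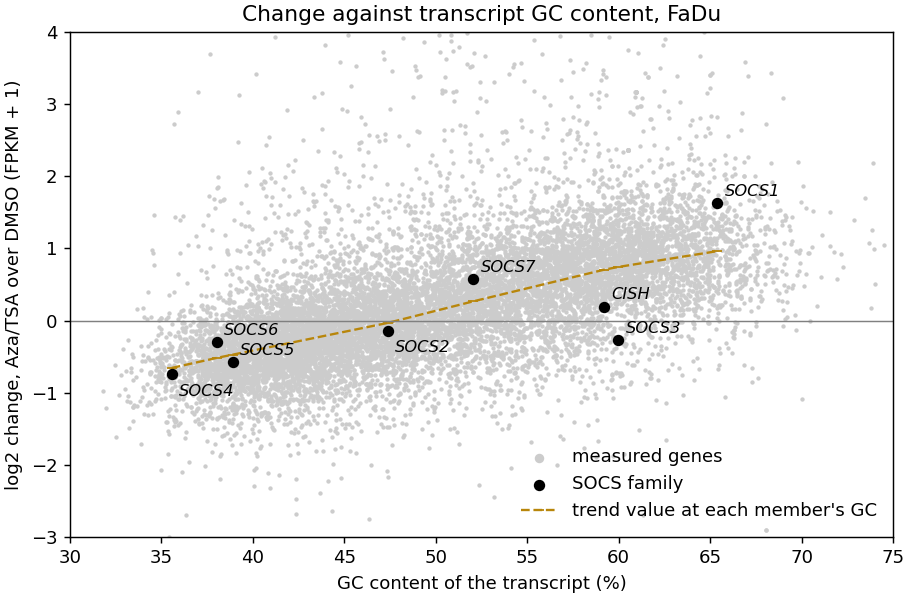
Log2 change, Aza/TSA over DMSO, against the GC content of the transcript (%), for measured genes (grey) and the 8 SOCS family genes (black); the dashed line joins the value of the lowess trend at each member's GC content, and genes beyond the axes are not drawn. SOCS1, SOCS7 and SOCS6 lie above the line, and SOCS3 and CISH lie furthest below it.

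Direction was compared across settings, with other pseudocounts, scalings and the trends on GC content and length. SOCS1 and SOCS7 were above 0 in all 8 settings plotted, and SOCS2, SOCS3, SOCS4 and SOCS5 were below 0 in all 8. SOCS6 and CISH changed sign in 1 setting, the GC trend. No other setting turned a member's direction.

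**Figure D4:**
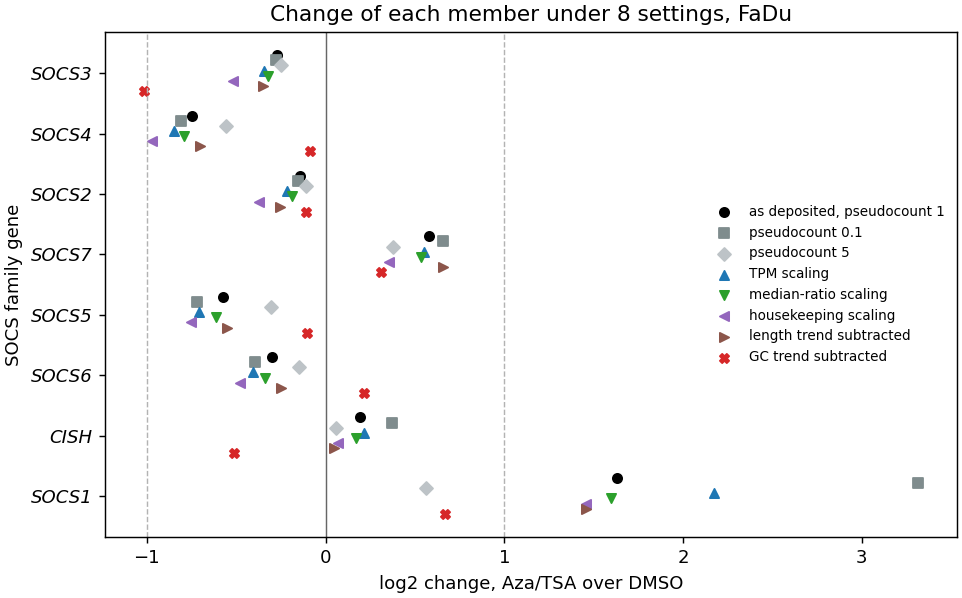
Log2 change, Aza/TSA over DMSO, of each SOCS family gene under 8 settings (symbols); dashed lines mark 2-fold. Only SOCS1 lies past 2-fold higher, in 6 of the 8 settings, and only SOCS3, after the GC trend was subtracted, lies past 2-fold lower.

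Genes with values most like those of SOCS1 over the 2 libraries, by distance on the log2(FPKM + 1) scale, were LOC646808, an uncharacterised locus (2.71 FPKM in the Aza/TSA library, 0.181 in the DMSO library, distance 0.02), the homeobox gene BARX1 (2.70 and 0.186, distance 0.02) and STMN3, a stathmin of neurons (2.57 and 0.174, distance 0.03). There were 14 genes within a distance of 0.1 of SOCS1, so 2 libraries do little to single out a partner. Of 1567 genes between 0.1 and 0.3 FPKM in the DMSO library, a range chosen after the SOCS1 value was seen, 255 reached 1 FPKM in the Aza/TSA library and 68 (4.34%) were at the SOCS1 level or above. For SOCS4, the lowest member by change, the nearest were ZAK, a MAP kinase kinase kinase (8.04 FPKM in the Aza/TSA library, 14.1 in the DMSO library, distance 0.01), ANAPC4, a subunit of the anaphase-promoting complex (8.11 and 14.4, distance 0.03), and ZNF680, a zinc-finger gene (8.13 and 13.9, distance 0.03). There were 23 genes within 0.1 of SOCS4.

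Of 39 ligands that signal through JAKs, 10 were at least 2-fold higher and 1, TSLP, was lower, with a median log2 change of 0.07 over all 39. Over all 25548 symbols, with no filter on low values, 8.53% were called higher and 2.76% lower. Of the 10, 8 were under 1 FPKM in the DMSO library, so they passed the filter for measured genes through the Aza/TSA library only, and counts or medians over the 17 measured ligands are no evidence of direction. The number higher was 4 with a pseudocount of 5, 4 with a filter at 5 FPKM, and 5 after the GC trend was subtracted. These counts were also taken among ligands that passed a filter on level, so they share that limit. In the same order, 893 of 13558, 1491 of 9425 and 921 of 12529 genes were called higher. IL6, the main ligand of the gp130 family, had 77.6 FPKM in the Aza/TSA library, against 12.5 FPKM in the DMSO library. IL24, a cytokine of the IL-10 family, had 14.2 FPKM in the Aza/TSA library, against 0.378 FPKM in the DMSO library. IL11, another gp130 ligand, had 9.10 FPKM in the Aza/TSA library and was listed at 0 in the DMSO library. SOCS3, the inhibitor of gp130 signalling, was not higher in the same library, as given above. A link between these ligand levels and SOCS3 was not tested.

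Cytokine receptors were mixed. Of 40, 22 were measured, with 3 at least 2-fold higher (13.6%) and 1 lower (4.55%), near the 16.1% and 5.21% of all measured genes. Of the 3 higher, 1 was under 1 FPKM in the DMSO library and so was measured through the Aza/TSA library only. The median log2 change of the 22 receptors was 0.14. After the GC trend was subtracted it was −0.24, and 3 genes passed 2-fold higher and 0 passed 2-fold lower. Of genes with a GC value 7.35% were then higher and 4.29% lower. IL6R, the receptor chain specific to IL-6, had 10.5 FPKM in the Aza/TSA library, against 2.18 FPKM in the DMSO library. The shared chain IL6ST had 2.31 FPKM in the Aza/TSA library and 5.46 FPKM in the DMSO library, a log2 change of −0.97. IL2RG, the common gamma chain, had 2.28 FPKM in the Aza/TSA library and was listed at 0 in the DMSO library. IFNGR1, the ligand-binding chain of the interferon gamma receptor, had 29.3 FPKM in the Aza/TSA library, against 73.5 FPKM in the DMSO library. IL6ST was named for its link to SOCS3 after its value was seen.

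None of the JAK kinases, which include targets of SOCS1 and SOCS3, passed 2-fold among the 3 that were measured. Of all measured genes 16.1% were called higher and 5.21% lower, and 3 genes are too few to set against those shares. JAK1 had 30.7 FPKM in the Aza/TSA library and 48.7 FPKM in the DMSO library, with a log2 change of −0.65. JAK2 had 3.67 and 7.62 FPKM in the same order, with a change of −0.88, which passed 2-fold lower with a pseudocount of 0.1, TPM scaling or housekeeping scaling. TYK2, which serves interferon receptors, went the other way, with 12.8 FPKM in the Aza/TSA library and 7.58 FPKM in the DMSO library. JAK3, the kinase partner of the common gamma chain, had 0.239 FPKM in the Aza/TSA library and 0.137 FPKM in the DMSO library.

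Of 6 STATs examined, 5 were measured, and 1 was at least 2-fold higher and 0 lower, with a median log2 change of 0.05, where 16.1% of all measured genes were called higher and 5.21% lower. STAT2, which acts in interferon signalling, had 23.1 FPKM in the Aza/TSA library, against 11.0 FPKM in the DMSO library, a change of 1.01 that stood on the threshold and was under it in 6 other settings. STAT3, the main STAT of IL-6 signalling, had 45.4 FPKM in the Aza/TSA library and 27.7 FPKM in the DMSO library. STAT6, which serves the IL-4 receptor, had 29.7 and 28.6 FPKM, and STAT5B had 6.33 and 6.52 FPKM, in the Aza/TSA and DMSO libraries. STAT4 had 1.79 FPKM in the Aza/TSA library and 2.35 FPKM in the DMSO library, and STAT5A had 0.988 and 0.763 FPKM.

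STAT target genes other than SOCS members had 6 of 17 measured members at least 2-fold higher (35.3%) and 3 lower (17.6%), out of 22 listed, where 16.1% of all measured genes were higher and 5.21% lower. The median was 0.80. With the GC trend subtracted, 2 passed 2-fold in each direction and the median was 0.36, where 7.35% of genes with a GC value were higher and 4.29% lower. TIMP1, an inhibitor of metalloproteinases, had 287 FPKM in the Aza/TSA library, against 24.6 FPKM in the DMSO library. IRF9, a DNA-binding factor of interferon signalling, had 67.8 FPKM in the Aza/TSA library, against 19.5 FPKM in the DMSO library. BCL2L1, a survival gene, had 48.3 FPKM in the Aza/TSA library, against 16.1 FPKM in the DMSO library. The 3 lower genes were named after their values were seen. MYC, a growth-promoting transcription factor, had 91.3 FPKM in the Aza/TSA library, against 258 FPKM in the DMSO library, a log2 change of −1.49 and −1.88 after the GC trend was subtracted. CEBPD, a transcription factor of the acute-phase response, had 8.88 FPKM in the Aza/TSA library, against 20.1 FPKM in the DMSO library, a log2 change of −1.09 and −2.23 after the GC trend was subtracted. MCL1, a survival gene of the BCL2 family, had 158 FPKM in the Aza/TSA library, against 318 FPKM in the DMSO library, a log2 change of −1.01 and −0.87 after the GC trend was subtracted. SOCS3 and CISH, which are also STAT targets, were within 2-fold.

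Other inhibitors of the pathway held 1 gene of 11 that was at least 2-fold higher (9.09%, against 16.1% of all measured genes). In the other direction 0 were lower, against 5.21% of all measured genes, and the median was 0.44. PIAS3, an inhibitor of STAT3, had 17.8 FPKM in the Aza/TSA library, against 6.11 FPKM in the DMSO library. USP18, which limits type I interferon receptor signalling, had 8.89 FPKM in the Aza/TSA library and 4.65 FPKM in the DMSO library. SH2B3, an adaptor that restrains JAK2, had 6.70 FPKM in the Aza/TSA library and 3.43 FPKM in the DMSO library. Neither USP18 nor SH2B3 passed 2-fold, at 0.81 and 0.80.

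The ubiquitin ligase that SOCS proteins work through was expressed in both libraries. All 6 partners were measured and 0 passed 2-fold in either direction (median 0.42). Of all measured genes 16.1% were called higher and 5.21% lower, and 6 genes are too few to set against those shares. Elongin B, listed under its older symbol TCEB2, had 186 FPKM in the Aza/TSA library and 101 FPKM in the DMSO library. Elongin C (TCEB1) had 41.9 FPKM in the Aza/TSA library and 36.0 FPKM in the DMSO library. The scaffold CUL5 had 8.09 FPKM in the Aza/TSA library and 13.4 FPKM in the DMSO library, a log2 change of −0.66. ARIH2, a ligase that acts with CUL5, had 19.6 FPKM in the Aza/TSA library and 12.2 FPKM in the DMSO library. Elongin C was named for its role after its value was seen.

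Of 28 other proteins with a SOCS box, 17 were measured, and 3 were at least 2-fold higher (17.6%, close to the 16.1% of all measured genes) and 2 lower (11.8%, against 5.21%). Of the 3 higher, 1 was under 1 FPKM in the DMSO library and so was measured through the Aza/TSA library only. The median log2 change of the 17 genes was 0.46. After the GC trend was subtracted it was −0.04, and 0 genes passed 2-fold higher and 2 passed 2-fold lower. Of genes with a GC value 7.35% were then higher and 4.29% lower. SPSB2, which targets inducible nitric oxide synthase, had 7.60 FPKM in the Aza/TSA library, against 2.32 FPKM in the DMSO library. ASB6, an ankyrin-repeat member, had 6.67 FPKM in the Aza/TSA library, against 2.49 FPKM in the DMSO library. RAB40B, a small GTPase with a SOCS box, had 2.03 FPKM in the Aza/TSA library, against 5.63 FPKM in the DMSO library. Among receptors and adaptors bound by SOCS proteins, 1 of 10 measured genes was at least 2-fold higher and 0 lower (median −0.19). Of all measured genes 16.1% were higher and 5.21% lower. After the GC trend was subtracted, 0 of these receptors and adaptors were higher and 2 lower. Of genes with a GC value 7.35% were then higher and 4.29% lower. SORBS3, the adaptor vinexin, had 14.4 FPKM in the Aza/TSA library, against 4.48 FPKM in the DMSO library. TIRAP, an adaptor of Toll-like receptors, had 2.56 FPKM in the Aza/TSA library and 1.14 FPKM in the DMSO library. NCK1, an adaptor that SOCS7 binds, had 20.0 FPKM in the Aza/TSA library and 31.9 FPKM in the DMSO library.

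**Figure D5:**
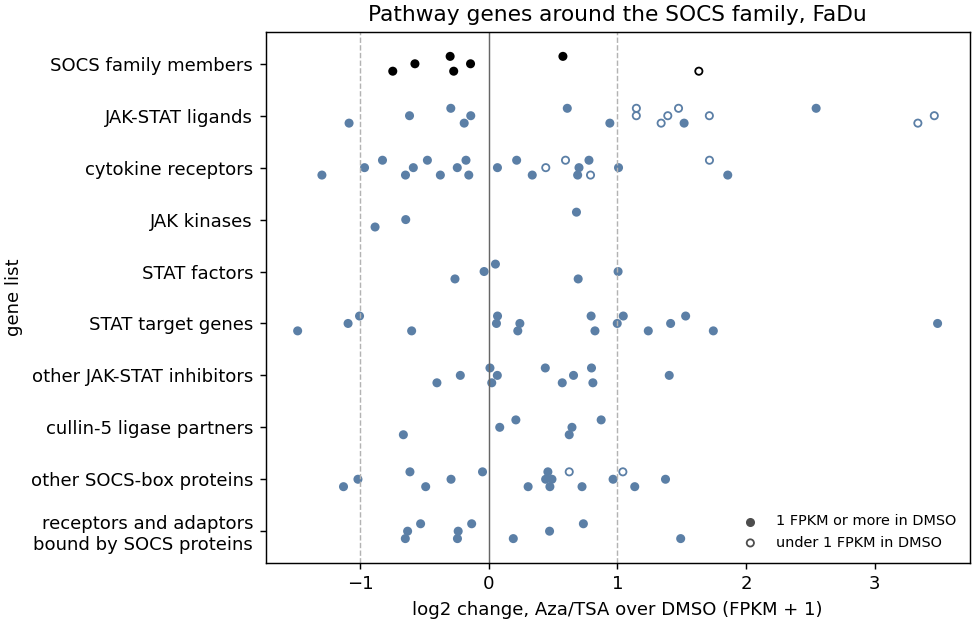
Log2 change, Aza/TSA over DMSO, of the measured SOCS family genes (black; CISH was not measured) and of the measured genes of 9 pathway lists (blue). Open circles are genes under 1 FPKM in the DMSO library, which were measured through the Aza/TSA library only, and dashed lines mark 2-fold. SOCS1 and 8 of the 10 ligands past 2-fold higher are open. So are 1 of the 3 cytokine receptors and 1 of the 3 other SOCS-box genes past 2-fold higher.

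Markers of squamous epithelium were detected in both libraries, at unequal levels. Of 7 such genes, 6 reached 10 FPKM in the Aza/TSA library and 7 in the DMSO library, and their summed levels were 591 FPKM in the Aza/TSA library and 998 FPKM in the DMSO library. The basal keratin KRT5 had 226 FPKM in the Aza/TSA library and 687 FPKM in the DMSO library. TP63, a transcription factor of basal epithelium, had 23.2 FPKM in the Aza/TSA library and 73.7 FPKM in the DMSO library. DSG3, a desmosome protein, had 3.16 FPKM in the Aza/TSA library and 22.1 FPKM in the DMSO library. KRT14, the partner of KRT5, went the other way, with 147 FPKM in the Aza/TSA library and 49.8 FPKM in the DMSO library. So did KRT6A (30.7 and 15.2 FPKM) and CDH1 (98.7 and 64.7 FPKM), in the same order. EPCAM was lower, with 62.7 FPKM in the Aza/TSA library and 86.1 FPKM in the DMSO library. The part of these marker differences in the results was not tested. The leukocyte gene PTPRC was at 0.0385 FPKM in the Aza/TSA library and 0.0513 FPKM in the DMSO library, and the summed levels of 5 leukocyte markers were 5.05 and 1.74 FPKM, mostly CD14 (4.59 and 1.62 FPKM). Summed levels were 3.73 and 0.943 FPKM for 3 endothelial markers and 3.61 and 0.794 FPKM for 4 fibroblast markers, in the Aza/TSA and DMSO libraries. In bulk RNA, fewer cells expressing a gene and less RNA per cell cannot be told apart.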

How the data were processed

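The authors deposited 1 table of FPKM per gene symbol and library. The submitters' processing notes name TopHat 1.3.2, Cufflinks 2.0.2 and the build hg19; no annotation, filter or scaling between libraries was given. The table has 25593 rows, and 45 repeated rows were summed to 25548 symbols. FPKM give no read totals, so fragments were estimated from the steps of low values, over genes with 1 RefSeq-matched transcript of 1000 to 8000 bases. Every fragment number and counting interval above rests on a single step fitted to both FaDu libraries together. For genes with several transcripts the number of fragments is less certain.

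Change was computed with a pseudocount of 1 FPKM, which understates the change of low genes, and was called at 2-fold. Genes counted as measured at 1 FPKM in either FaDu library. Transcripts of GENCODE release 29, on another build than the files, gave GC content and length for 92.4% of measured genes, and lowess trends (fraction 0.3) were fitted over 7129 genes with no less than 5 FPKM in each library. Near 0 FPKM, where the pseudocount already shrinks the change, subtracting the trend may overcorrect. RefSeq promoters matched 5 of the 8 members. Named genes were all members, a gene that overlaps a member, the genes nearest to SOCS1 and SOCS4, the JAKs and STATs examined and the 3 widest changes of each list; IL6ST, TCEB1, TSLP, MYC, CEBPD, MCL1 and the epithelial markers were named after their values were seen. Members and lists were chosen with earlier results of these data known. An item of the pathway lists is not reported here. Python 3.11.15, pandas 2.3.3, statsmodels 0.14.6 and scipy 1.17.1 were used.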

Additional observations from a re-analysis of the deposited data

How the results depend on the processing

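With 1 library per group, a call means 2-fold on the log2 scale, and replicate error is unknown. No paired analysis was possible because each group had 1 library. SOCS1 had log2 changes of 0.56 with a pseudocount of 5 and 0.67 after the GC trend was subtracted, against 1.63 as reported, and up to 3.31 with a pseudocount of 0.1. After the GC trend was subtracted SOCS3 was at −1.02, and SOCS6 (0.22) and CISH (−0.51) changed direction; the cause was not tested. The number of members at least 2-fold higher was 0 with a pseudocount of 5, a filter at 5 FPKM or the GC trend, against 1. At 2.65 FPKM in the Aza/TSA library, SOCS1 could not be called higher in any of these settings, whatever its DMSO value. The number lower was 1 with the GC trend, against 0. Filters do not alter a single gene's change, so they were applied to counts alone.

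Of all measured genes 2178 were higher and 706 lower. These became 893 higher and 253 lower with a pseudocount of 5, 921 higher with the GC trend (7.35% of genes with a GC value, and 4.29% lower), and 1182, 1152 and 1248 lower with a pseudocount of 0.1, TPM scaling and housekeeping scaling. Housekeeping scaling, by a factor of 0.840 on the Aza/TSA library, moved the median log2 change of measured genes to −0.10, against 0.13, and every member with it. Counts in the pathway lists are small: of 180 counts under other settings, 146 stayed within 1.5 times the reported count and 34 did not.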
